A study of Mus musculus with 6 samples.

Results

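The interferon-stimulated genes followed here are 39 genes that interferon is known to induce, found by their names among the probes of the array, and measured in 3 populations of phagocytes sorted from mouse sublingual mucosa. All 39 of the 37006 genes on the array had a probe, 70 probes in all, and each gene was represented by its brightest probe. The members passed the filter on dim probes in 35 cases, as did 20817 genes in all, so the comparisons rest on these 35 and not on every member.

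The animals were BALB/c mice, an inbred strain. All of them had received FITC, a fluorescent dye that also sensitises skin and mucosa, on the sublingual mucosa 2 times, and no group without FITC was analysed here. Cells freed by a 30 min digestion of tongue tissue (collagenase, DNase) were sorted into 3 fractions, and total RNA was amplified with a kit for very small inputs before Cy3 labelling. Fr1 was CD11c+CD206-. Fr2 was CD11c- and CD206- and positive for the macrophage antigen that Adgre1 encodes, and Fr3 was positive for that antigen and CD206hi. CD11c marks dendritic cells among others, and CD206 is the mannose receptor. Each fraction had 2 arrays of 1 colour from independent experiments; the number of mice per sort and their age are not given in the sources used here, and p-values measure only the spread between these arrays.

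Interferons are secreted proteins made after cells sense viral or other nucleic acids. Type I and type III interferons act through receptors coupled to JAK1 and TYK2, kinases that phosphorylate STAT proteins such as STAT2. STAT2 acts with IRF9 in a complex that binds the interferon-stimulated response element and switches on genes with antiviral functions. Interferon gamma acts mainly at another element, the gamma-activated site. The products sense viral RNA, block its translation, cut it, or stop viruses at membranes, and others raise or damp the response itself, and macrophages and dendritic cells hold many of them at a basal level.

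The response element was visible in the members' own promoters. Its core, 2 copies of GAAA with 2 bases between them on either strand, was found in 18 of the 31 members that have a promoter in the RefSeq table (58.1%; window of 250 bases before to 50 after the gene start, GRCm38.p6), against 3.99% of all 27025 genes there. With a C straight after the first copy, a narrower match, it was found in 11 of 31 (35.5%), against 0.792% of all genes. The core of the gamma-activated site, TTC and GAA with 3 bases between them, was found in 10 of 31 (32.3%), against 9.55%. A match describes the letters and is not a measured binding site. The 250 bases before the start are printed for 4 members, 3 that show how the matches lie and 1 without a match that had the largest fitted difference between fractions; capitals mark the matches to the GAAA pair, which overlap in some places. The sequences are those of RefSeq, 5′ to 3′ on the strand of the gene.
Isg15 (chr4:156200819-156201068, minus strand): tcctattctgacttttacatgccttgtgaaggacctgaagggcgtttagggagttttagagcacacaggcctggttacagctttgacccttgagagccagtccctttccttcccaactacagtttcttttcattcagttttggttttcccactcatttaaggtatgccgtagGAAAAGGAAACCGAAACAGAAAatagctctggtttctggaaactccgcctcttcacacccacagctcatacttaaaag
Ifit3 (chr19:34583279-34583528, plus strand): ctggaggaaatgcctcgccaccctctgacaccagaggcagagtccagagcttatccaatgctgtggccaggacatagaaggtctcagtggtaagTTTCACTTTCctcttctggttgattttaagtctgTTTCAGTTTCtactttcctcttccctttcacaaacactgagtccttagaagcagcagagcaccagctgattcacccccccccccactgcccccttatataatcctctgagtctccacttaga
Oas1a (chr5:120907526-120907775, minus strand): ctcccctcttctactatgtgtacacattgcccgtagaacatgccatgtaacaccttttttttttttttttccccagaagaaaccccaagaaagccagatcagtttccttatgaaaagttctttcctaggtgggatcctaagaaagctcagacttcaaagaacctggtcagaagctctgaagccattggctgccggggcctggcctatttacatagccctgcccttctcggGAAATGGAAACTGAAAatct
Oasl2 (chr5:114896684-114896933, plus strand): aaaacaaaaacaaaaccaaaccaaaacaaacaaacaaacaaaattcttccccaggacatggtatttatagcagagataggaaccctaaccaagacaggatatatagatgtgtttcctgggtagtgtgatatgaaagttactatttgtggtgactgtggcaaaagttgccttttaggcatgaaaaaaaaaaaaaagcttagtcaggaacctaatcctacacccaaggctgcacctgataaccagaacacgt
Isg15 held 3 overlapping matches, the one nearest the start beginning at position -66 relative to it. Ifit3 held 2, the nearer beginning at -122, and Oas1a held 2, the nearer beginning at -14. None lay in the window of Oasl2, nor in those of Irf7, Oasl1, Samhd1 and Isg20.

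Levels below are log2 intensities relative to the 75th percentile of each array, so that 0 is the level of a fairly bright probe and 1 unit is a 2-fold step; levels of different genes come from different probes and are not compared. Differences between fractions are log2 values with their SE, and adjusted p-values are from limma with Benjamini-Hochberg adjustment over all genes tested, 2 arrays per fraction, two-sided. A gene was called at an adjusted p under 0.05, and an exact permutation test of 2 arrays against 2 cannot go below p = 0.333. Values of a fraction are given for replicate 1 and then replicate 2. "Not well above background" is the scanner software's own flag for a dim spot.

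The sort markers followed the gates in part. Mrc1, which encodes CD206, was at 4.10 and 3.01 in Fr3, 0.98 and 0.65 in Fr2 and -3.75 and -3.18 in Fr1. Itgax, which encodes CD11c, was at 3.05 and 2.66 in Fr1 and at 3.10 and 1.53 in Fr2, although Fr2 was gated as lacking it, and at 0.52 and 1.29 in Fr3. Spots well above background made up between 44.6% and 52.4% per array, and no spot was saturated. The arrays of Fr1 and Fr3 shared 1 slide, and both Fr2 arrays lay on another, so effects of fraction and slide cannot be told apart in the comparisons with Fr2. Among all genes, replicates correlated least in Fr3 (Pearson r = 0.796 across genes, which are not independent replicates). For replicate 1 minus replicate 2, genes with probes of at most 30% T had a median of -0.59 in Fr3 and -0.41 in Fr1, against 0.28 and 0.39 for more T-rich probes; in Fr2 these medians were -0.12 and 0.04. In bulk RNA of sorted cells, fewer cells of a type and less RNA per cell cannot be told apart.

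Most of the interferon-stimulated genes were detected in every fraction. On all 6 arrays 25 of the 39 were well above background, 6 were on 5 arrays, and 1, Ifit1, was on none. Both arrays of a fraction were well above background for 28 members in Fr1, 34 in Fr2 and 29 in Fr3. The median level of the 35 tested members lay between 0.80 and 2.29 on the 6 arrays. The highest and the lowest of these medians were those of the 2 replicates of Fr2, 2.29 on replicate 1 and 0.80 on replicate 2.

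**Figure D1:**
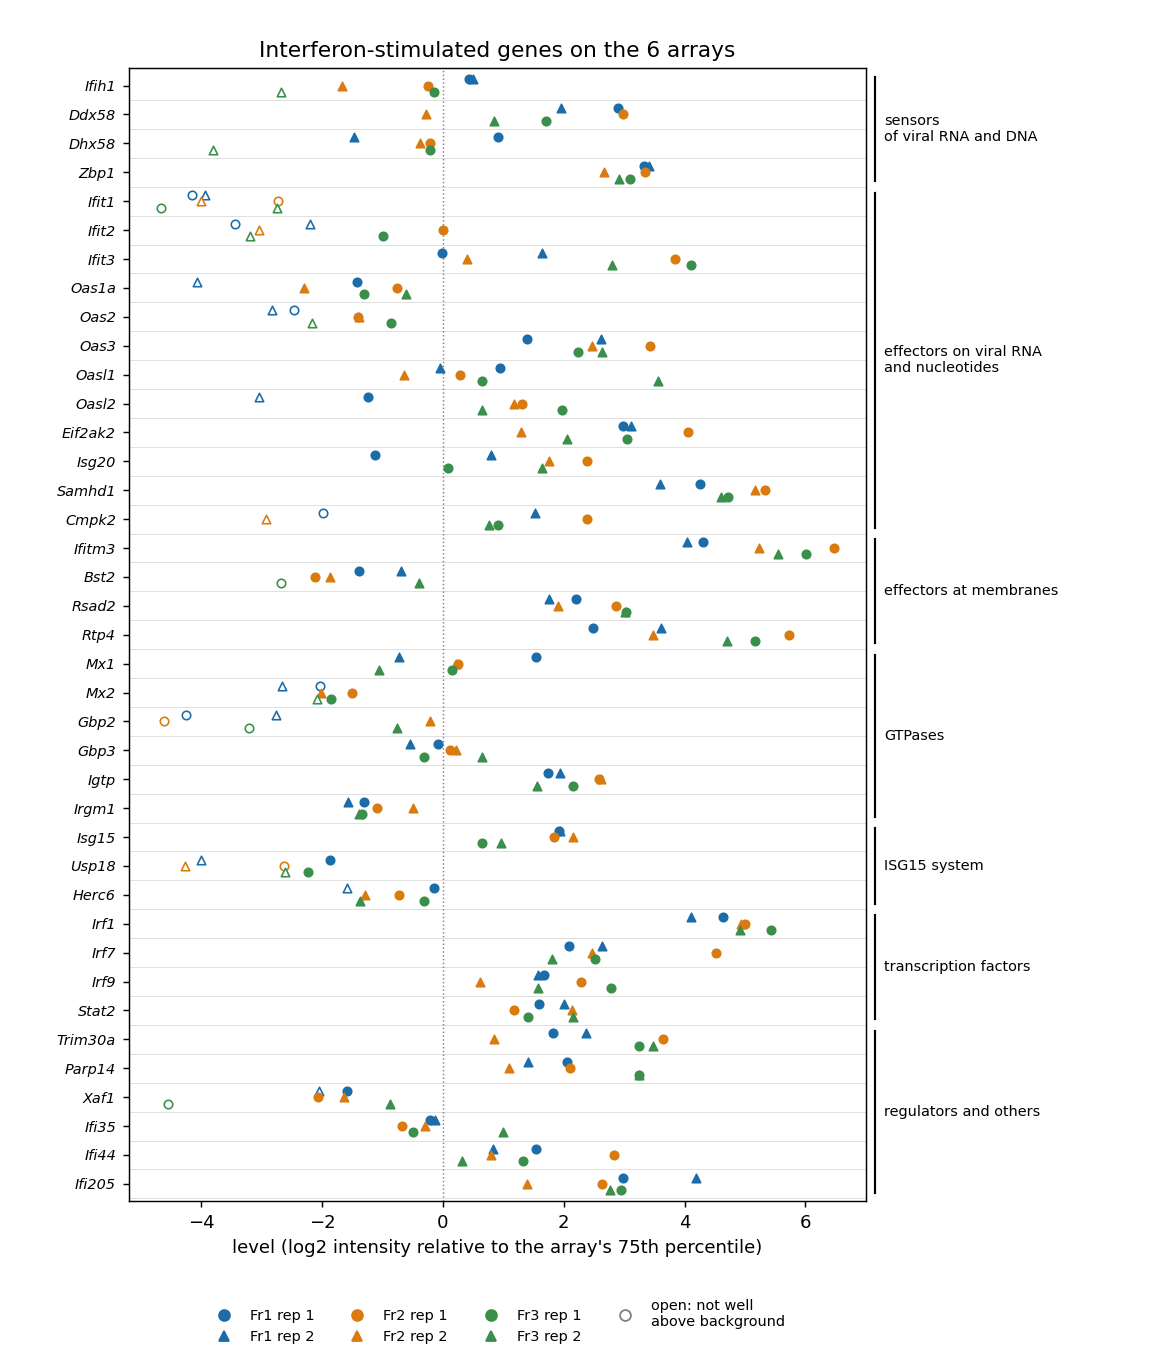
Level of each of the 39 members on the 6 arrays (log2 intensity relative to the 75th percentile of the array), ordered by role. Colours mark the fractions, circles replicate 1 and triangles replicate 2, and open symbols are not well above background; Oasl2 lies lowest on the Fr1 arrays, and many circles of Fr2 lie to the right of the Fr2 triangles.

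No member was called in any of the 3 comparisons (0 of 35 each time). Between Fr1 and Fr2 limma called 0 of all genes (0%), between Fr1 and Fr3 it called 1 (0.0048%) and between Fr2 and Fr3 1 (0.0048%). At an unadjusted p under 0.05, 4 members were higher in Fr2 than in Fr1 (6.42% of all genes) and 0 the other way (3.35%). In the same terms 3 were higher in Fr3 than in Fr1 (5.36%) and 0 the other way (2.8%), and 1 was higher in Fr3 than in Fr2 (4.06%) and 0 the other way (4.84%). With so few arrays, a p that misses the threshold does not show that levels were alike.

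The members' median difference was -0.15 for Fr1 minus Fr2 (0.04 over all genes), -0.41 for Fr1 minus Fr3 (-0.05) and 0.0013 for Fr2 minus Fr3 (-0.08). Under other processing the first lay between -0.48 (T-rich probes left out) and -0.03 (quantile normalization), with -0.05 under normexp background correction and -0.41 without the filter. The second was -0.13 under normexp and between -0.44 and -0.37 under the other treatments of the same arrays. Single arrays decided both medians that involve Fr2. Without replicate 1 of Fr2 the median of Fr1 minus Fr2 was 0.08, and without replicate 2 it was -0.64; without replicate 1 of Fr1 it was -0.57 and without replicate 2 of Fr1 -0.08. The median of Fr2 minus Fr3 was -0.26 and 0.39 without replicate 1 and 2 of Fr2, and 0.30 and -0.16 without replicate 1 and 2 of Fr3. The median of Fr1 minus Fr3 kept its direction whichever array was left out, between -0.55 (without replicate 1 of Fr3) and -0.24 (without replicate 2 of Fr3). The arrays of Fr1 and Fr3 did not overlap in 11 of 35 members with Fr3 higher (21.9% of all genes) and in 5 with Fr1 higher (13.7%). Between Fr1 and Fr2 the counts were 10 with Fr2 higher (22.2%) and 4 with Fr1 higher (22.7%), and between Fr2 and Fr3 they were 6 with Fr2 higher (19.5%) and 4 with Fr3 higher (22.6%). The 3 comparisons share arrays and are not independent of each other. The choice of probe bore on the directions: of 19 further probes kept for 17 members, 10 had the same sign as the brightest for Fr1 minus Fr2, 12 for Fr1 minus Fr3 and 12 for Fr2 minus Fr3.

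**Figure D2:**
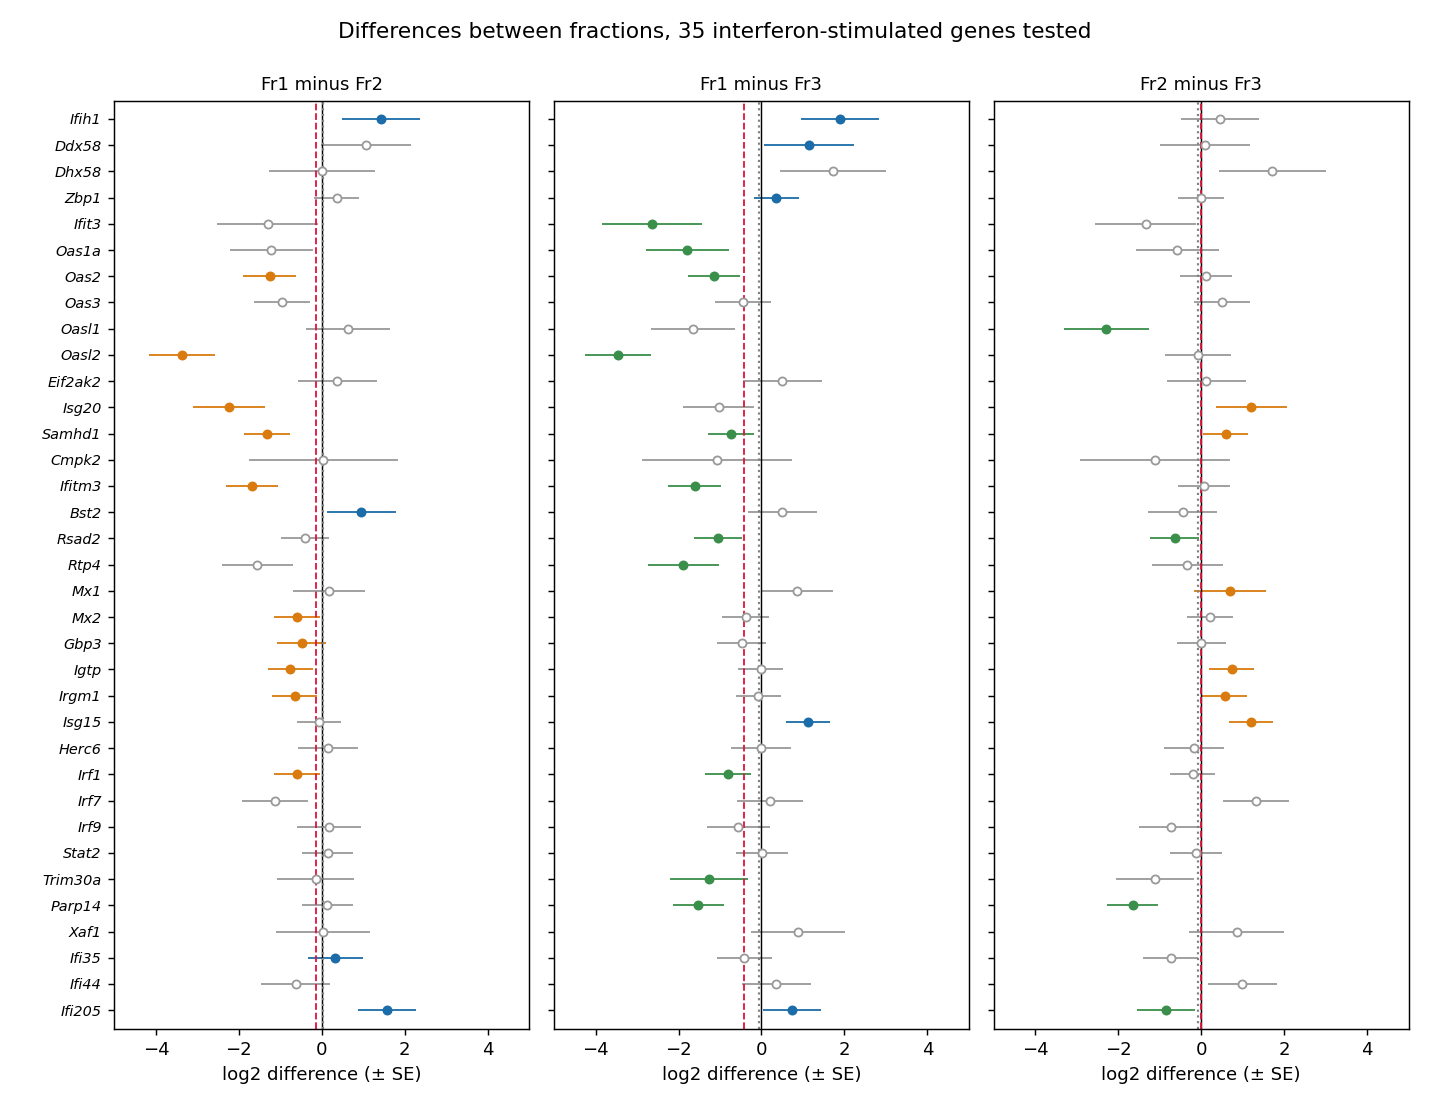
Log2 difference between fractions with its SE for the 35 members tested, in the order of the plot of levels. Filled points have arrays that do not overlap, coloured by the higher fraction; the dashed line is the members' median and the dotted line that of all genes, and the dashed line lies farthest from 0 for Fr1 minus Fr3, at -0.41.

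None of the 4 sensors of viral RNA and DNA was called. Fr1 arrays lay above those of Fr2 in 1 of them (22.7% of all genes) and above those of Fr3 in 3 (13.7%). Ifih1, which encodes MDA5, a sensor of long double-stranded RNA, was at 0.44 and 0.50 in Fr1, -0.25 and -1.67 in Fr2, and -0.15 and -2.68 in Fr3, where replicate 2 was not well above background. Both Fr1 arrays lay above the 4 others. The log2 difference was 1.43 ± 0.94 from Fr2 (adjusted p = 0.651) and 1.88 ± 0.94 from Fr3 (adjusted p = 0.622), neither called. Ddx58, which encodes RIG-I, a sensor of RNA with a free triphosphate end, was at 2.90 and 1.96 in Fr1, 2.99 and -0.27 in Fr2, and 1.70 and 0.85 in Fr3. Fr1 lay above Fr3 with no overlap, while the Fr2 replicates enclosed the 4 other arrays. Another kept probe of Ddx58 had the opposite sign, at -1.44 for Fr1 minus Fr2 and -1.69 for Fr1 minus Fr3. Dhx58, which encodes LGP2, a regulator of both sensors, was at 0.91 and -1.47 in Fr1, -0.21 and -0.37 in Fr2, and -0.21 and -3.80 in Fr3, the last not well above background, and the fractions overlapped. Zbp1, a sensor of Z-form nucleic acids, lay between 2.67 and 3.41 on the 6 arrays; another kept probe gave -0.62 for Fr1 minus Fr3, where the brightest gave 0.36.

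None of the effectors that bind or degrade viral RNA and nucleotides was called. Of the 10 tested of 12, 4 had Fr2 arrays above Fr1 (22.2% of all genes) and 5 had Fr3 above Fr1 (21.9%), while 0 had Fr1 above Fr2 (22.7%) or above Fr3 (13.7%). Oas2, counted in both, was dim on both Fr1 arrays and passed the filter through Fr2 only. Oasl2, an oligoadenylate synthetase-like protein, had the largest fitted difference of any member, with 1 of its Fr1 arrays not well above background (probe on chromosome 5, 115362168 to 115362227, mm9). It was at -1.25 and -3.04 in Fr1, the latter not well above background, at 1.30 and 1.17 in Fr2 and at 1.98 and 0.65 in Fr3. Every array of Fr2 and Fr3 lay above both Fr1 arrays. The log2 difference was -3.38 ± 0.79 for Fr1 minus Fr2 (unadjusted p = 0.0041, adjusted p = 0.325) and -3.46 ± 0.79 for Fr1 minus Fr3 (unadjusted p = 0.0037, adjusted p = 0.295).

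Its relative Oasl1, which is known to damp translation of Irf7, showed no such pattern. It was at 0.94 and -0.04 in Fr1, 0.28 and -0.64 in Fr2, and 0.64 and 3.57 in Fr3. The Fr3 arrays lay above those of Fr2 but far apart from each other, and the log2 difference of Fr2 minus Fr3 was -2.28 ± 1.02 (adjusted p = 0.576). Without replicate 1 of Fr3 it was -3.75, in a fit where Fr3 has 1 array and is assumed to vary like the others.

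Oas1a, Oas2 and Oas3 encode oligoadenylate synthetases, which make the signal that activates RNase L. Oas2 was not well above background in Fr1 (-2.47 and -2.83), was at -1.40 and -1.39 in Fr2 and at -0.86 and -2.16 in Fr3, with replicate 2 of Fr3 not well above background. Fr2 was at least 1.45-fold above Fr1 (limma adjusted p = 0.568). The fold was computed against the lowest signal well above background on the Fr1 arrays, or the probe's own where higher. Another kept probe had the opposite sign, at 1.80 for Fr1 minus Fr2, but was not well above background in either. For Fr2 minus Fr3 that probe gave -4.02, where the brightest gave 0.12. Oas1a was at -1.41 and -4.07 in Fr1, the latter not well above background, -0.76 and -2.30 in Fr2, and -1.31 and -0.60 in Fr3, and Oas3 lay between 1.39 and 3.43 on the 6 arrays with all fractions overlapping. Oas1b, a relative outside the list, lay between 6.81 and 7.62 on the 6 arrays.

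The IFIT proteins bind viral RNA that lacks host cap marks. Ifit3 was at -0.02 and 1.65 in Fr1, 3.84 and 0.39 in Fr2, and 4.11 and 2.80 in Fr3. Both Fr3 arrays lay above both Fr1 arrays, with 1 Fr2 replicate in the range of each (Fr1 minus Fr3 -2.64 ± 1.22, adjusted p = 0.622). Ifit1 was not well above background on any array, between -4.67 and -2.73. Ifit2 was well above background on replicate 1 of Fr2 (0.00) and of Fr3 (-0.98) and on no other array. Ifit1 and Ifit2 were not tested, and for Ifit3 the near-identical gene Ifit3b may add to the probe's signal.

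The enzymes that act on RNA or on nucleotide pools differed among themselves. Isg20, an exonuclease that degrades single-stranded RNA, was at -1.13 and 0.79 in Fr1, 2.39 and 1.75 in Fr2, and 0.09 and 1.64 in Fr3. The Fr2 arrays lay above all others (Fr1 minus Fr2 -2.24 ± 0.86, adjusted p = 0.487). Another kept probe of Isg20 gave -0.30 for Fr1 minus Fr2 and -1.04 for Fr2 minus Fr3, with overlapping arrays in both. Samhd1, which depletes the nucleotides needed for reverse transcription, was bright, at 4.26 and 3.59 in Fr1, 5.33 and 5.16 in Fr2, and 4.72 and 4.60 in Fr3. No 2 fractions overlapped, in the order Fr2, Fr3, Fr1, and Fr1 minus Fr2 was -1.32 ± 0.55 (adjusted p = 0.508). Eif2ak2, which encodes PKR, the kinase that stops translation, and Cmpk2, a mitochondrial nucleotide kinase, had overlapping fractions.

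Among the effectors at membranes, Ifitm3, which stops viruses from fusing with endosomes, was at 4.31 and 4.03 in Fr1, 6.47 and 5.23 in Fr2, and 6.01 and 5.55 in Fr3 (probe on chromosome 7, 148195489 to 148195548, mm9). Both Fr1 arrays lay below the 4 others. Fr1 minus Fr2 was -1.68 ± 0.63 (adjusted p = 0.478) and Fr1 minus Fr3 was -1.61 ± 0.63 (adjusted p = 0.583). Rtp4, which is known to bind viral RNA and to act as a chaperone of receptors, was at 2.49 and 3.60 in Fr1, 5.73 and 3.48 in Fr2, and 5.16 and 4.70 in Fr3, so that Fr3 lay above Fr1 and replicate 2 of Fr2 lay within Fr1. Rsad2, which encodes viperin, was at 3.03 and 3.02 in Fr3, above all arrays of the other fractions, which lay between 1.76 and 2.87. Another kept probe of Rsad2 gave 0.12 for Fr1 minus Fr3 and -0.05 for Fr2 minus Fr3. Bst2, which encodes tetherin, was higher on both Fr1 arrays (-1.38 and -0.69) than in Fr2 (-2.11 and -1.86), with Fr3 on either side and its replicate 1 not well above background.

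None of the GTPases was called. Of the 5 tested of 6, 4 had Fr2 arrays above Fr1 (22.2% of all genes) and 3 had Fr2 above Fr3 (19.5%), Igtp and Irgm1 being in both counts, with differences between -0.76 and -0.48 from Fr1 and between 0.57 and 0.74 from Fr3. Igtp, an immunity-related GTPase that acts on the vacuoles of parasites, was at 1.74 and 1.93 in Fr1, 2.58 and 2.61 in Fr2, and 2.15 and 1.56 in Fr3; Fr2 minus Fr3 was 0.74 ± 0.54 (adjusted p = 0.647). Irgm1, of the same family, lay the same way, with Fr1 minus Fr2 at -0.65 ± 0.54 (adjusted p = 0.736); for Fr2 minus Fr3 its brightest probe gave 0.57 and another kept probe -1.19. Mx2 was not well above background in Fr1 (-2.03 and -2.67) and was at -1.50 and -2.01 in Fr2 and -1.86 and -2.08 in Fr3, at least 1.12-fold higher in Fr2 than in Fr1 (adjusted p = 0.771). It is 1 of the 4 and passed the filter through Fr2 only. Gbp2, a guanylate-binding protein gene, was well above background on replicate 2 of Fr2 (-0.21) and of Fr3 (-0.76) only, and was not tested.

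In the ISG15 system, which attaches a ubiquitin-like protein to targets, Isg15 itself had close replicates. It was at 1.92 and 1.94 in Fr1, 1.84 and 2.16 in Fr2, and 0.65 and 0.97 in Fr3 (probe on chromosome 4, 155573649 to 155573708, mm9). Fr3 lay below Fr1 and Fr2 with no overlap, by 1.12 ± 0.53 (adjusted p = 0.622) and 1.19 ± 0.53 (adjusted p = 0.576). Usp18, the protease that removes ISG15, was well above background on replicate 1 of Fr1 (-1.87) and of Fr3 (-2.23) only. Herc6, the ligase, had overlapping fractions. Of the conjugation enzymes outside the list, Uba7, the E1 enzyme, was at 0.07 and 0.00 in Fr3, below Fr1 (1.24 and 1.28) and Fr2 (2.45 and 0.89), and Ube2l6, the E2 enzyme, overlapped between all fractions. Neither was called.

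None of the transcription factors of the response was called. Irf1 was at 4.64 and 4.10 in Fr1, below Fr2 (5.01 and 4.93) and Fr3 (5.43 and 4.92). Irf7, the factor that amplifies interferon production, was at 2.09 and 2.63 in Fr1, 4.51 and 2.46 in Fr2, and 2.51 and 1.80 in Fr3, all overlapping. Irf9 and Stat2, whose products act together in the complex, also overlapped between all fractions, with differences between -0.73 and 0.18.

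Among the regulators and others, Parp14, an ADP-ribosyl transferase of macrophage activation, was highest in Fr3 (probe on chromosome 16, 35832992 to 35833051, mm9). It was at 2.06 and 1.41 in Fr1, 2.11 and 1.09 in Fr2, and 3.25 and 3.25 in Fr3. Both Fr3 arrays lay above the 4 others. Fr1 minus Fr3 was -1.52 ± 0.61 (adjusted p = 0.593) and Fr2 minus Fr3 was -1.65 ± 0.61 (adjusted p = 0.516). Another kept probe of Parp14 gave -1.78 and -0.45 for these, and -1.33 for Fr1 minus Fr2. Ifi205, a member of the AIM2-like DNA sensor family, was at 2.99 and 4.20 in Fr1, 2.63 and 1.39 in Fr2, and 2.95 and 2.77 in Fr3, highest in Fr1 and lowest in Fr2 with no overlap (Fr1 minus Fr2 1.58 ± 0.70, adjusted p = 0.527), but another kept probe gave -0.69 for Fr1 minus Fr2 and -1.36 for Fr1 minus Fr3. Trim30a, a regulator of NF-kappaB signalling, was higher in Fr3 (3.24 and 3.48) than in Fr1 (1.82 and 2.37), and the Fr2 replicates lay on either side at 3.64 and 0.84. Its other kept probes gave 0.60 and -0.74 for Fr1 minus Fr3. Xaf1, Ifi35 and Ifi44 overlapped except that both Fr1 arrays of Ifi35 (-0.22 and -0.12) lay above those of Fr2 (-0.68 and -0.29).

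The replicates of Fr2 stood apart in these genes. Replicate 1 was over 2-fold above replicate 2 in 14 of 35 members (40%), against 14.8% of all genes, and replicate 2 was over 2-fold above replicate 1 in 0 members, against 14.2% of all genes. The median of replicate 1 minus replicate 2 was 0.66 for the members and -0.05 for all genes, and 26 of 35 members were higher on replicate 1 (47.8% of all genes). In Fr1 the counts were 5 and 6 (17.8% and 16.9% of all genes), and in Fr3 9 and 5 (19.6% and 22.1%). The gaps in Fr2 were large in single genes: Cmpk2 was at 2.38 and -2.93, the latter not well above background. Ifit3, Ddx58, Trim30a and Eif2ak2 had gaps of 3.45, 3.26, 2.80 and 2.76, Eif2ak2 lying at 4.06 and 1.30. Rtp4, Irf7 and Ifi44 had gaps of 2.25, 2.05 and 2.04. At their brightest probes Isg15 (-0.32), Oasl2 (0.13), Igtp (-0.03) and Stat2 (-0.97) did not share the gap, so it covered part of the list. Another kept probe of Stat2 did, with a gap of 1.21. So did further kept probes of Irf7 (2.75), Mx1 (1.85), Rsad2 (1.44), Parp14 (1.37) and Ifi205 (1.15). Those of Trim30a (1.08), Oas2 (1.07, both arrays dim), Irf9 (1.04) and Ddx58 (1.01) did as well. Over 2-fold the other way lay further kept probes of Zbp1 (-2.28), Samhd1 (-1.55), Irf1 (-1.22) and Oasl1 (-1.18).

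**Figure D3:**
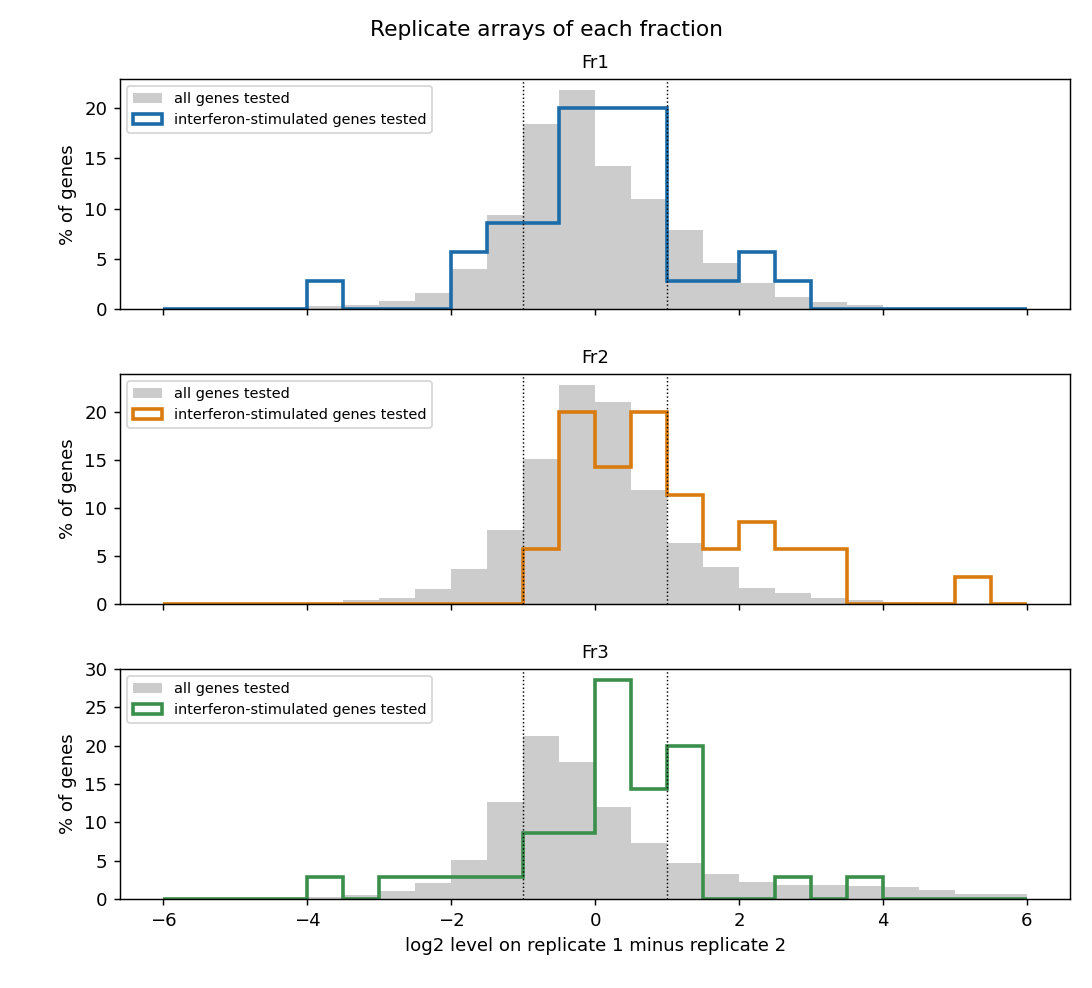
Distribution of replicate 1 minus replicate 2 (log2, bins of 0.5, values beyond the ends of the axis in the last bins) in each fraction, as a percentage of genes, for the 35 members tested (lines) and all 20817 genes tested (grey). Dotted lines mark a 2-fold difference; in Fr2 40% of the members lie right of the upper line and 0 lie left of the lower one.

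The gap was also seen under other treatments of the arrays, tried after it had been noticed. The count of 14 was between 13 and 17 under the authors' deposited table, median centring, quantile normalization, no filter, the mean of a gene's probes and the exclusion of T-rich probes, with 0 to 2 the other way; it was 11 of 25 with members detected on all arrays, and it was 9 with another background correction (normexp), under which 3.51% of all genes passed. Of 19 further probes kept for 17 members, 12 had the same sign of the Fr2 gap as the brightest probe and 7 the opposite sign. In other pathway genes, 26 of 38 further interferon-induced genes and 9 of 10 sensors and adaptors were higher on replicate 1 of Fr2. So were 3 of 7 ligands, 4 of 6 receptors, 4 of 6 signalling genes, 5 of 7 negative regulators and 2 of 2 ISG15 conjugation genes. Among members with a GAAA pair in the promoter the gap was over 2-fold in 8 of 16, with a median of 1.1, and among those without it in 4 of 12, with a median of 0.59; no test was made of this.

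Some cell type markers moved with this gap. Macrophage markers were higher on replicate 1 of Fr2 in 8 of 9 tested, and their summed linear level was 348 on replicate 1 and 160 on replicate 2, against 102 to 108 in Fr1 and 425 to 487 in Fr3. The exception was Adgre1 (6.27 and 6.29), which encodes the antigen of the sort. Csf1r (7.55 and 5.63) weighed most in the sum of replicate 1. Dendritic cell markers were higher on replicate 1 in 6 of 10 (summed level 557 and 202), whereas 2 of 7 eosinophil markers were (98.7 and 189). The dendritic cell sum came mostly from H2-Ab1 (8.11 and 6.65) and Cd74 (7.83 and 6.26), and the median gap of that list was 0.18. Fibroblast markers were higher on replicate 1 in 4 of 5 (9.11 and 4.57), and T and NK cell markers in 1 of 5 (2.95 and 4.73). Monocyte markers were higher in 2 of 7 (108 and 136). Neutrophil markers were higher in 3 of 9 (622 and 685), against 148 to 156 in Fr1 and 30.0 to 62.4 in Fr3. The part of these cell types in the members' levels was not tested.

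Markers also moved with the fractions. Macrophage markers had arrays of Fr3 above those of Fr1 in 8 of 9 (21.9% of all genes), the side on which 11 of 35 members lay. Dendritic cell markers had Fr1 above Fr3 in 5 of 10 (13.7%) and below in 1 (21.9%). They had Fr1 above Fr2 in 3 of 10 (22.7%) and below in 1 (22.2%). Their Fr2 arrays lay above those of Fr3 in 4 of 10 (19.5%) and below in 1 (22.6%). Plasmacytoid dendritic cell markers had Fr1 above Fr2 in 8 of 9, above Fr3 in 4 of 9 and below Fr3 in 1. Arrays of Fr2 lay above those of Fr1 (22.2%) in 8 of 9 neutrophil, 5 of 7 eosinophil, 5 of 7 monocyte and 3 of 5 fibroblast markers. They lay above those of Fr3 (19.5%) in 9 of 9, 7 of 7, 4 of 7 and 2 of 5. T and NK cell markers had Fr1 above both other fractions in 3 of the 5 tested, Gzma, Gzmb and Il2rb, and the summed linear level of the 8 on the array was 18.4 and 21.3 in Fr1, 2.95 and 4.73 in Fr2, and 6.04 and 4.12 in Fr3. Cd3e and Ncr1, the other T and NK cell markers tested, overlapped between all fractions. Clec9a, Itgae, Ccr9, Spib and Gzmb passed the filter through Fr1 only, the fraction where they were higher. The same held for Xcr1, Chil3, Ltf, Epx and Dcn in Fr2 and for Lyve1 and Pdgfra in Fr3. The part of the cell types in the differences between fractions was not tested.

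Of the 19 interferon genes looked for, 16 were on the array and 7 passed the filter. Ifna9, Ifnab and Ifnb1 had Fr1 arrays above those of both other fractions. Ifna1 was at -4.25 and 2.52 in Fr1, the former not well above background, and overlapped between Fr1 and both other fractions. Only 1 of the 7, Ifng, was higher on replicate 1 of Fr1 than on replicate 2. Ifnb1 and Ifng passed the filter through Fr1 only, and Ifna14 through Fr3 only. Ifna9, an interferon alpha gene, was at 1.77 and 2.77 in Fr1, 0.28 and 1.59 in Fr2, and 0.44 and 1.24 in Fr3. Ifnb1, interferon beta, was at -0.15 and -0.01 in Fr1 and was not well above background in Fr2 (-4.12 and -2.85) or Fr3 (-4.26 and -4.28). The level in Fr1 was at least 5.79-fold that in Fr2 (adjusted p = 0.265) and at least 4.52-fold that in Fr3 (adjusted p = 0.145). Ifnab, a type I interferon gene, was at 2.26 and 3.50 in Fr1, 1.02 and 0.23 in Fr2, and -0.61 and 0.35 in Fr3, a log2 difference of 3.01 ± 0.70 between Fr1 and Fr3 (adjusted p = 0.299). Ifng, interferon gamma, was at 2.63 and 1.01 in Fr1, -1.28 and -4.98 in Fr2, and 1.25 and -4.27 in Fr3, where replicate 2 of Fr2 and of Fr3 was not well above background. Of the T and NK cell markers, Gzma, Gzmb and Il2rb were also higher in Fr1, while Cd3e and Ncr1 overlapped between the fractions. The part of T and NK cells in the level of Ifng was not tested. No ligand was called, and the interferon alpha genes are near-identical copies that a probe may not tell apart. Ifna14 was at 1.30 on replicate 2 of Fr1 and not well above background on replicate 1 (-2.55) or in Fr2, and was at -1.15 and -1.02 in Fr3. Ifnl3, a type III interferon, overlapped between Fr1 and both other fractions and was higher in Fr3 (2.49 and 2.89) than in Fr2 (0.66 and 2.08).

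**Figure D4:**
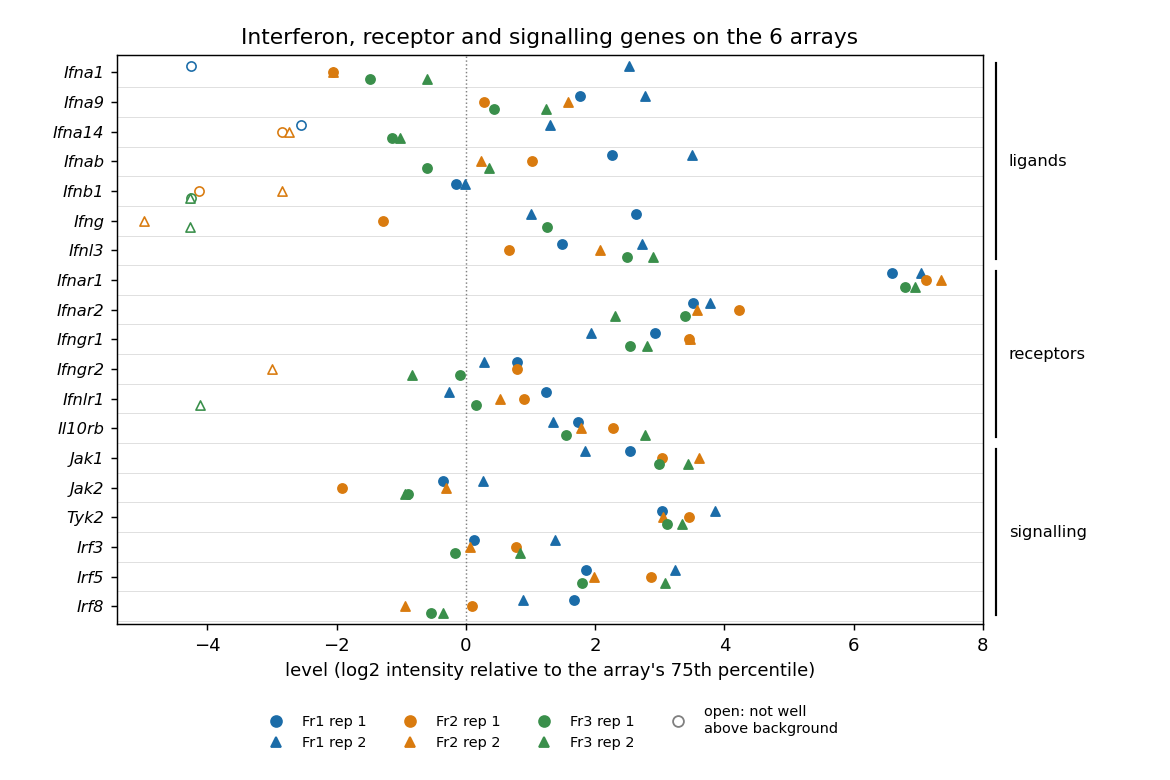
Level of the interferon ligands, receptors and signalling genes reported, on the 6 arrays (log2 intensity relative to the 75th percentile of the array). Colours mark the fractions, circles replicate 1 and triangles replicate 2, and open symbols are not well above background; Ifnb1 is filled on the Fr1 arrays alone, and Ifnar1 lies between 6.59 and 7.35 on all of them.

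The 6 receptor genes were well above background on every array, except Ifngr2 on replicate 2 of Fr2 (-3.0) and Ifnlr1 on replicate 2 of Fr3 (-4.11). Ifnar1, a chain of the type I receptor, lay between 6.59 and 7.35 on the 6 arrays, and its partner Ifnar2 between 2.31 and 4.23. Ifngr1 was at 3.45 and 3.46 in Fr2, above Fr1 (2.93 and 1.94) and Fr3 (2.54 and 2.80), and Ifngr2 overlapped between Fr2 and both other fractions. Ifnlr1, the type III receptor chain, was at 0.16 and -4.11 in Fr3, below Fr2 (0.89 and 0.53), and Il10rb, which type III interferons share with interleukin 10, lay between 1.35 and 2.77. None of the 6 was called.

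None of the 6 signalling genes reported was called. Jak1, a kinase of the receptors, was lower in Fr1 (2.54 and 1.85) than in Fr2 (3.04 and 3.60) and Fr3 (2.99 and 3.44), Jak2 was lower in Fr3 (-0.89 and -0.94) than in Fr1 (-0.35 and 0.26), and Tyk2 lay between 3.03 and 3.85 on all arrays. Irf8, a lineage factor of dendritic cells, was at 1.67 and 0.88 in Fr1, above Fr2 (0.10 and -0.94) and Fr3 (-0.55 and -0.35), with a log2 difference of 1.69 ± 0.63 from Fr2 (adjusted p = 0.472) and 1.73 ± 0.63 from Fr3 (adjusted p = 0.537). Irf3 and Irf5 overlapped between the fractions.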

How the data were processed

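The deposited spot intensity files come from Agilent Feature Extraction (version 11.5.1.1 per the file headers), with background subtracted and surrogate values for dim spots. The authors' deposited table of log2 values followed these (r of at least 0.9999 per array, 75th percentile 0 to 0.01) and served as an alternative. Spots of a probe were averaged (56605 probes; 4 left out for outlier flags), log2 was taken and the array's 75th percentile subtracted. Probes were kept if both arrays of any fraction lay well above background (27867), and a gene was its brightest probe. Names came through RefSeq for 32992 probes by accession, 10223 by symbol and 520 by synonym; 12866 kept the file's name. Probe positions are those of the files (mm9).

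limma 3.58.1 (R 4.3.3) fitted 3 group means over 6 arrays and was tested on simulated data; Python 3.11.15 read the files. The members and lists were chosen with earlier results of these data known. Every array is given for the 8 members with the smallest p in a comparison and for members dim on both arrays of a fraction; all receptors, the signalling genes except 1 gene that is not reported here and, of other pathway lists, the 2 genes with the smallest p per comparison are named. The number of arrays limits precision.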

Additional observations from a re-analysis of the deposited data

How the results depend on the processing

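No member was called under any alternative except Oasl1 between Fr2 and Fr3 without replicate 1 of Fr3, and no called value turned its direction. Counts of genes called over the whole array moved widely. Between Fr1 and Fr3 (1 gene) it was 0 with normexp, with no filter on dim probes and with the 4 arrays of the shared slide alone, 12 without T-rich probes and 13 with a variance trend. Between Fr2 and Fr3 (1 gene) it was 8 with normexp, 14 with probes detected on all arrays, 56 without T-rich probes and 14 with a variance trend. Between Fr1 and Fr2 (0 genes) it was 7 without T-rich probes and 1 with a variance trend. Leaving out 1 array each time gave 0 to 3 genes for Fr1 and Fr2, 0 to 1389 for Fr1 and Fr3 and 0 to 928 for Fr2 and Fr3, the highest of the last 2 without replicate 1 of Fr3. The cause was not tested.

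With the replicate number as a block, 0 genes were called in each comparison. The deviations of same-numbered arrays correlated with r = 0.118, 0.433 and 0.046 across genes for the 3 pairs of fractions, under 0.1 for the last, so no pairing was assumed.

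Members with arrays not overlapping moved as follows. The shares of all genes under these settings are not given, so the counts show only the movement. Fr1 above Fr3 (5) was 2 with normexp and 2 with the mean of a gene's probes. Fr1 above Fr2 (4) was 2 with that mean and 2 with probes detected on all arrays. Fr3 above Fr2 (4) was 2 with median centring, which shifted the all-gene median of Fr2 minus Fr3 from -0.08 to 0.03. Leaving out 1 array, which makes a lack of overlap more frequent by construction, gave 4 to 13 for Fr1 above Fr2, 10 to 22 for Fr2 above Fr1, 5 to 11 for Fr1 above Fr3, 11 to 19 for Fr3 above Fr1, 5 to 18 for Fr2 above Fr3 and 4 to 14 for Fr3 above Fr2.

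The members over 2-fold higher on replicate 1 of Fr2 (14) were 9 with normexp, and those lower (0) were 1 with no filter and 2 without T-rich probes. The core of the response element was found in 11 members, not 18, when a C was required after its first copy. The members' differences changed sign in 121 alternative values, none of them called, and in at most 10 of 35 members per alternative and comparison (Fr2 minus Fr3 without replicate 2 of Fr2).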

Other observations

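Of 46 interferon-induced genes outside the list, 43 were on the array and 38 tested, and limma called none at an adjusted p under 0.05. At an unadjusted limma p under 0.05, 3 passed for Fr1 minus Fr2 (2034 of all 20817 genes). For Fr1 minus Fr3 7 passed (1697 of all genes), and for Fr2 minus Fr3 6 passed (1854 of all genes). Fr2 arrays lay above Fr1 in 12 (22.2% of all genes) and below in 6 (22.7%), and Fr3 arrays lay above Fr1 in 14 (21.9%) and below in 3 (13.7%). Their median difference was -0.37 for Fr1 minus Fr2 and -0.33 for Fr1 minus Fr3, and the genes named next are those with the smallest p. Ifitm6, a relative of Ifitm3, was not well above background in Fr1 (-3.38 and -3.82) and was at 1.83 and 0.30 in Fr2 and -1.70 and 0.13 in Fr3, at least 8.0-fold higher in Fr2 than in Fr1 (limma adjusted p = 0.265). Nmi, a partner of STAT proteins, was at -1.38 and -1.15 in Fr1, 1.35 and 0.35 in Fr2, and -0.31 and -0.64 in Fr3, and the fractions did not overlap. Irgm2, of the family of Irgm1, was not well above background in Fr1 (-1.76 and -1.56) and was at 0.83 and 0.22 in Fr3, at least 4.55-fold higher there (adjusted p = 0.335). Ifi204, of the family of Ifi205, was at 6.94 and 6.64 in Fr3, above Fr1 (4.29 and 5.01) and Fr2 (5.44 and 5.03). Nlrc5, the activator of MHC class I genes, was at 2.17 and 1.83 in Fr2, above Fr1 (0.74 and 1.37) and Fr3 (0.58 and -1.17).

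Of 11 sensors and adaptors of interferon induction 10 were tested. Ikbke, a kinase of IRF3 and IRF7, was not well above background in Fr1 (-4.33 and -4.08) and was at -0.47 and -1.64 in Fr2, at least 1.84-fold higher there (limma adjusted p = 0.434). Mavs, the adaptor of RIG-I and MDA5, was not well above background in Fr1 (-4.19 and -2.18) and was at -0.11 and -1.01 in Fr3, at least 2.59-fold higher there (adjusted p = 0.532). Ikbke passed the filter through Fr2 only, and Mavs through Fr3 only. Tlr7, an endosomal RNA sensor, was at 0.34 and 0.99 in Fr3, above Fr1 (-0.49 and -1.79, the latter not well above background) and Fr2 (0.02 and -0.92). Tlr3 was at -1.05 and -0.97 in Fr3, below Fr1 (0.60 and -0.09) and Fr2 (1.21 and -0.29). Of the 7 negative regulators, Ptpn11, a phosphatase that acts on STAT proteins, was lower in Fr1 (1.59 and 1.95) than in Fr2 (3.89 and 2.21) and Fr3 (3.21 and 2.73). Ptpn6 was at 2.43 and 1.32 in Fr2, above Fr1 (0.83 and 1.31) and Fr3 (0.65 and 1.22). Pias1 was at 0.64 and 0.31 in Fr3, above Fr1 (-0.39 and -2.98, the latter not well above background) and Fr2 (0.30 and -1.37). Irf2 lay between -3.96 and -0.28 on the 6 arrays. None was called.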
